A study of Mus musculus with 4 samples.

Results

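The 39 genes described here encode the canonical Wnt ligands, the enzyme that acylates them, their Frizzled and Lrp receptors, and the secreted Sfrp, Dkk and R-spondin proteins that block or boost them. They were chosen by name, through the gene names and accessions that the arrays carry, and not by a cut on their measured values. Earlier results of these data were known when they were chosen. All 39 had at least 1 of 54 probes on the arrays, out of 27670 genes that the arrays name, and 33 could be tested. The series compared embryos of the nucleoredoxin genotype NRX-/-, called Nxn-null here, with NRX+/+ wild-type embryos, at E9.5 and E11.5, which are counted in embryonic days. The sample titles call the NRX-/- RNA KD and do not say what these letters stand for. Both genotypes were C57BL/6J, and the series title places the question in Wnt/β-catenin signalling. The kind of null allele, the part of the embryo taken and the number of embryos behind each RNA are not given in the sources used here. Each stage had 2 two-colour arrays on which Nxn-null and wild-type RNA of that stage were hybridised together, and the dyes were exchanged between them. On replicate 1 the Nxn-null RNA was labelled with Cy5, and on replicate 2 with Cy3.

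Wnt proteins are secreted, lipid-modified signals. In the canonical branch they bring together a Frizzled receptor and an Lrp coreceptor on the receiving cell, which stops the destruction of β-catenin and lets it act with TCF/LEF factors on target genes. In the embryo the pathway patterns the neural tube, the tailbud, the limbs and the heart. Nucleoredoxin, the thioredoxin-related product of Nxn, is known to bind Dishevelled, which relays the signal from the receptor inside the cell.

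Each value below is a log2 ratio of Nxn-null over wild type after loess normalization, or a normalized log2 intensity, called a level. A probe was kept when either genotype was well above background on both arrays of some stage, and the brightest kept probe stands for a gene. A gene was called at a stage when its adjusted p was under 0.05 in a limma fit over the 4 arrays, with a coefficient for each stage and 1 for the dye. The adjustment was that of Benjamini and Hochberg, over all 17161 genes tested. Whether dye-swapped arrays hold separate RNA extracts is not stated in the labels, so these p-values measure only the spread between arrays, which may be technical. That fit has 1 residual degree of freedom, so its standard errors, near 0.06 for each member, come mostly from the spread over all genes. A difference between dye-swapped arrays that recurs at both stages is taken for a dye effect and left out of the error. Ratio fits with 1 array left out hold no dye term, so a call lost there cannot be put down to the array alone. In RNA pooled over many cell types, fewer cells of a type and less RNA per cell cannot be told apart.

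The arrays gave 4 sets of ratios. Between 48.2% and 70.3% of the probes were well above background in a channel, and at most 7 spots of an array were saturated. Ratios correlated across genes at 0.48 between the E9.5 arrays and at 0.26 between the E11.5 arrays, against 0.34 and 0.36 for arrays of the same dye orientation across stages. Genes are not independent replicates, and these values only describe the arrays. Nxn itself had ratios of -1.04 and -0.93 at E9.5 and of -1.24 and -1.42 at E11.5, which is 50.4% and 39.8% of the wild-type level. The sources used here do not say whether its probe reads the disrupted part. The header of each scanner file gives the same scan time, and the files show no scan batches.

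Of the members, 27 were well above background in both genotypes at both stages. Wnt8b and Fzd5 passed only through the Nxn-null RNA at E11.5, and their ratios of -0.08 and 0.05 at that stage were not called. The 6 members that were not tested, with no probe kept, were the ligands Wnt2b, Wnt8a and Wnt10b, the antagonists Sfrp4 and Dkk4, and the R-spondin Rspo4. No level is reported for them.

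The upstream sequence of 25 of the 39 members could be read from RefSeq (GRCm38.p6), as the 250 bases before each gene's start. The sequences of Wnt2 and Sfrp2 are shown because their ratios differed between the stages, as described below. Wnt2 lies at chr6:18030446-18030695 on the minus strand and Sfrp2 at chr3:83766071-83766320 on the plus strand, both written 5′ to 3′. Capitals mark a match to a GATA motif.
Wnt2: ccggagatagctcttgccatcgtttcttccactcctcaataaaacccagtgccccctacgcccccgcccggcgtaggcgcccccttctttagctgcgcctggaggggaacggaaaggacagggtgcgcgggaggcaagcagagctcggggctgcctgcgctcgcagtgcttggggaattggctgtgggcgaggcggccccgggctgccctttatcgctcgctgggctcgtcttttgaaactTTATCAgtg
Sfrp2: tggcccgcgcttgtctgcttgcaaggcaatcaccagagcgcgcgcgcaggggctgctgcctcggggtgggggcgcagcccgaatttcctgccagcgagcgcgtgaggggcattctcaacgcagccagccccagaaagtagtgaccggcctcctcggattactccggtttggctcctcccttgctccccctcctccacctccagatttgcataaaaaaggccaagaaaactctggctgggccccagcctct
The GATA search looked for AGATAA and TGATAA on both strands and found 1 match in the Wnt2 window, 9 bases before the start, and none in that of Sfrp2. These motifs lie in 16.6% of all 32851 windows of this length, and 4 of the 25 members had one. A TCF/LEF motif, CTTTGAA or CTTTGAT on either strand, was found in neither window. It lies in 7.48% of all windows and in that of 1 member, the ligand Wnt5b. A match is only a run of letters in this window and says nothing of binding.

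At E9.5, 8 of the 33 tested members were called, and 24.7% of all genes tested were called at that stage. The 5 higher members were the ligands Wnt3, Wnt7a and Wnt7b and the antagonists Sfrp1 and Sfrp2. The 3 lower members were the ligands Wnt2 and Wnt16 and the coreceptor Lrp5. Over all genes, 9.88% were called higher and 14.8% lower, so the share of members called was near that of all genes. At E11.5, 5 members were called against 9.31% of all genes. Wnt2, Sfrp1, Frzb and Rspo2 were higher (3.67% of all genes) and Lrp5 was lower (5.64% of all genes). The median ratio of the members was 0.04 for E9.5 and 0.07 for E11.5, beside 0.00 and 0.01 over all genes tested. No member reached a 2-fold difference at either stage by the probe that stands for it, and the study's own rule asked for that size at both stages. Leaving out any 1 of the 4 arrays together with the dye term ended every call of a member at a stage, with these exceptions. Wnt2 at E9.5 kept its call without replicate 1 of E9.5 or either E11.5 array. Sfrp1 at E11.5 kept its call without either E9.5 array. Leaving out the dye term alone, with all 4 arrays, ended every call of a member at a stage. Over all genes, 0.0874% were at least 2-fold higher and 0.752% at least 2-fold lower at E9.5. At E11.5 these shares were 0.0524% and 0.152%.

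**Figure D1:**
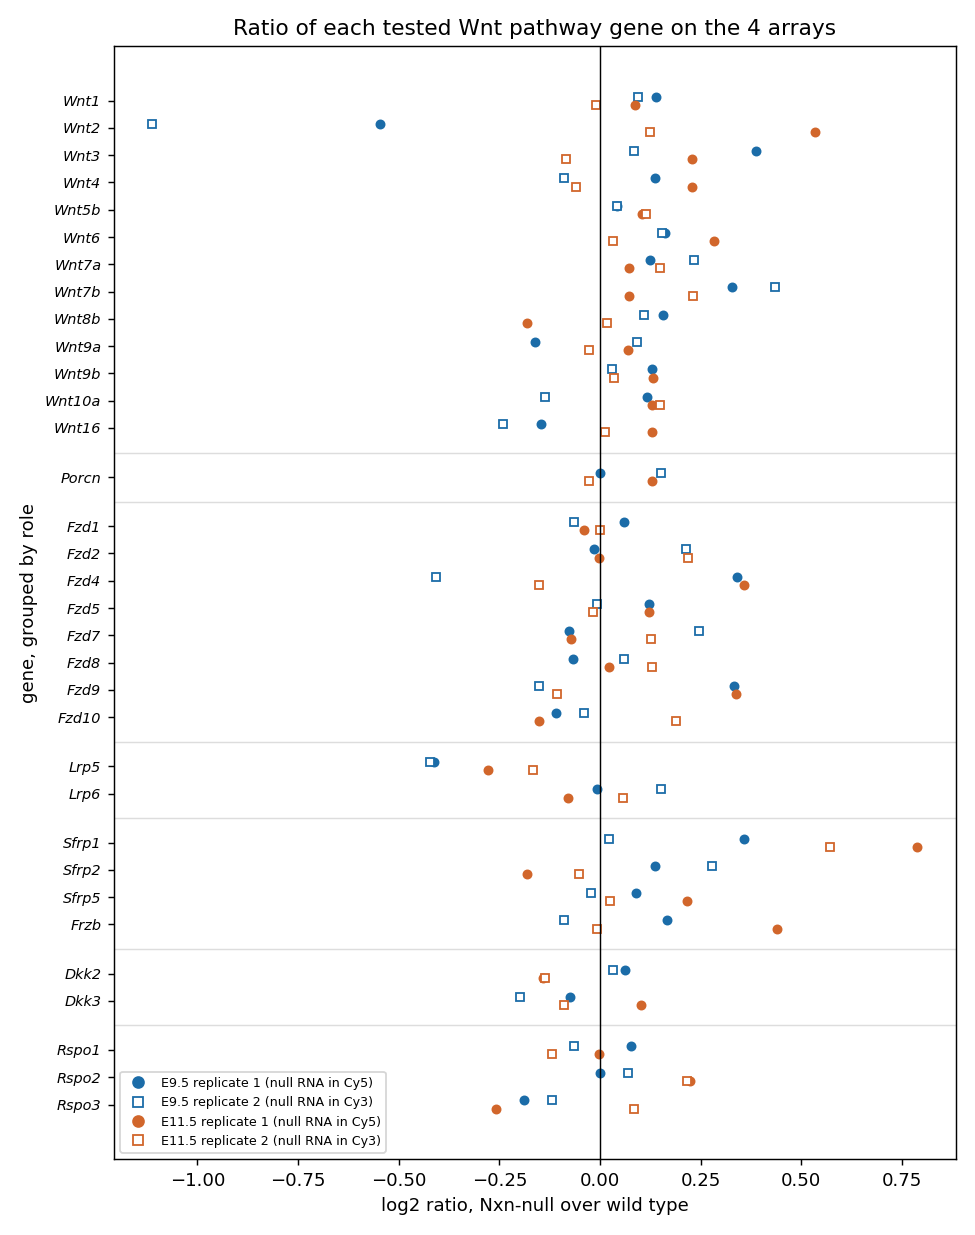
Log2 ratio of Nxn-null over wild type for each of the 33 tested members (rows, grouped by role) on each of the 4 arrays (filled circles replicate 1, open squares replicate 2, blue E9.5, orange E11.5). Most points lie close to 0, while Wnt2 reaches -1.11 at E9.5, Sfrp1 reaches 0.79 at E11.5 and Lrp5 is below 0 on all 4 arrays.

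Among the ligands, Wnt2 had the largest mean ratio, and its sign turned over between the stages. Wnt2 is a ligand of mesoderm, known for its place in the early lung, heart and placental vessels. Its level at E9.5 was 10.58 and 10.40 in Nxn-null RNA and 11.13 and 11.51 in wild-type RNA. At E11.5 it was 10.33 and 10.13 in Nxn-null RNA and 9.79 and 10.004 in wild-type RNA. The genotypes did not overlap at either stage, with the Nxn-null values lower at E9.5 and higher at E11.5. The ratio was -0.83 ± 0.40 (SD, n = 2 arrays) at E9.5, or 56.3% of wild type (limma adjusted p = 3.26e-09). At E11.5 it was 0.33 ± 0.29, or 1.26-fold higher (adjusted p = 0.0013). The difference between the stages was 1.16 ± 0.09 (SE), with an adjusted p of 6.65e-09. It lost its call without replicate 2 of E9.5 (0.88, adjusted p = 0.11), without replicate 1 of E11.5 (0.95, adjusted p = 0.329) and without replicate 2 of E11.5 (1.36, adjusted p = 0.0703). Without replicate 1 of E9.5 it was 1.44 and was still called.

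The Wnt2 level of wild-type RNA was 1.42 lower at E11.5 than at E9.5 on the log2 scale, from 11.32 to 9.90. In Nxn-null RNA it moved from 10.49 to 10.23. The Nxn-null level at E9.5 therefore lay between the 2 wild-type levels.

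Markers of other tissues moved at E9.5 together with Wnt2. All 14 tested heart muscle markers were lower in the Nxn-null RNA at E9.5, with a median ratio of -1.52. Their summed log2 level was 15.13 to 15.33 in Nxn-null and 16.93 to 16.95 in wild-type RNA. At E11.5 that level was 16.57 to 16.58 in Nxn-null and 16.49 to 16.53 in wild-type RNA. Of the 18 yolk sac markers, 16 were lower at E9.5, with a median of -1.16, and their summed level was 14.53 to 14.73 against 17.37 to 17.40. At E11.5 it was 16.35 to 16.36 against 16.34 to 16.49. Of 16 tested red cell markers, 15 were lower at either stage. Of the 14 placenta and decidua markers only 7 could be tested, 3 of which were higher and 3 lower at E9.5. Over all genes tested, 14.8% were called lower and 9.88% higher at E9.5, and 5.64% were called lower at E11.5. The marker lists were chosen with earlier results of these data known. The part of these markers in the Wnt2 ratio was not tested.

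Wnt7b and Wnt7a are closely related ligands with known expression in the neural tube, and both were called higher at E9.5. The level of Wnt7b at E9.5 was 9.56 and 9.52 in Nxn-null RNA and 9.23 and 9.08 in wild-type RNA, without overlap. At E11.5 its level was 10.23 on both arrays in Nxn-null RNA and 10.15 and 9.999 in wild-type RNA. The ratio was 0.38 ± 0.08 at E9.5, or 1.30-fold higher (adjusted p = 1e-04), and 0.15 ± 0.11 at E11.5 (adjusted p = 0.157). The difference between the stages was -0.23 ± 0.09 (SE) and was not called (adjusted p = 0.0967). Wnt7a had ratios of 0.12 and 0.23 at E9.5, followed by 0.07 and 0.15 at E11.5, with a mean of 0.18 ± 0.08 at E9.5 (adjusted p = 0.0409). Both genes were thus above 0 on each array.

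Wnt3, a ligand needed for gastrulation and limb outgrowth, had ratios of 0.39 and 0.08 at E9.5, followed by 0.23 and -0.08 at E11.5. Its mean of 0.24 ± 0.22 at E9.5 was called (adjusted p = 0.0079). On both stages the array with Nxn-null RNA in Cy5 gave the higher value. Its second, dimmer probe had ratios of 0.19 and 0.09 at E9.5, with a mean of 0.14 that was not called in a fit over probes (adjusted p = 0.126).

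Wnt16 is a ligand known from bone and blood stem cell development. Its ratios were -0.15 and -0.24 at E9.5, followed by 0.13 and 0.01 at E11.5, and the mean of -0.19 ± 0.07 at E9.5 was called (adjusted p = 0.0271). At E11.5 only 1 of its 4 channels was well above background, so its E11.5 ratio carries little information.

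Markers of neurons also stood higher at E9.5, 11 of 14 of them, with a median ratio of 0.35. Their summed log2 level at that stage was 15.50 to 15.51 in Nxn-null and 15.14 to 15.17 in wild-type RNA. At E11.5 it was 16.42 to 16.49 against 16.42 to 16.48. Of 9 tested markers of the dorsal neural tube, 4 were higher at E9.5 and none lower, beside 9.88% of all genes called higher and 14.8% lower. Their summed level was 13.13 to 13.17 against 12.90 to 12.93 at that stage. Other regions did not share that direction at E9.5. None of 6 tested ventral neural tube markers was higher and 2 were lower, 1 of 9 limb bud markers was higher and 3 were lower, and none of 9 tailbud markers was higher and 3 were lower. The part of these markers in the ratios of Wnt3, Wnt7a and Wnt7b was not tested.

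The other 8 tested ligands were Wnt1, Wnt4, Wnt5b, Wnt6, Wnt8b, Wnt9a, Wnt9b and Wnt10a, and none was called. Their mean ratios ran from -0.04 to 0.16 at E9.5 and from -0.08 to 0.16 at E11.5. Wnt6, a ligand of surface ectoderm, was the one at the top of that range at both stages. By its brighter probe its ratios of 0.16, 0.15, 0.28 and 0.03 were all above 0. Its slightly dimmer kept probe, with the arrays in the same order, gave 0.22, -0.12, 0.26 and -0.07. The sign of that probe followed the dye, its stage means were 0.05 and 0.09, and neither was called in the fit over probes. Wnt1, which marks the dorsal midline and the midbrain, was printed as 10 spots on each array, and these show how far single spots scatter. At E9.5 its spots ran from 0.07 to 0.22 on replicate 1 and from -0.09 to 0.27 on replicate 2, with medians of 0.14 and 0.09. The kept probes of Wnt5b had opposite signs, with mean ratios of 0.04 and 0.11 by the brighter and -0.03 and -0.06 by the dimmer probe, and neither was called. Porcn, the enzyme that attaches the lipid to Wnt proteins, had mean ratios of 0.08 and 0.05 and was not called.

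None of the 8 Frizzled receptor genes was called by its brightest probe. The mean ratios of Fzd1, Fzd2, Fzd4, Fzd5, Fzd7, Fzd8, Fzd9 and Fzd10 ran from -0.08 to 0.10 at E9.5 and from -0.02 to 0.11 at E11.5. The probes of Fzd8 and Fzd10 differed in sign at E9.5, at -0.0032 and 0.14 for Fzd8 and at -0.08 and 0.01 for Fzd10 (brighter probe first), with no call. Fzd4, the receptor also used by norrin in retinal vessels, had ratios of 0.34 and -0.41 at E9.5, followed by 0.36 and -0.15 at E11.5. Fzd9 had 0.33 and -0.15, then 0.34 and -0.11. In both genes the sign followed the dye and not the stage. That pattern, above 0 with Nxn-null RNA in Cy5 and below 0 with it in Cy3 at both stages, was seen in 5 of 33 members and in 18.4% of all genes tested. The reverse was seen in 3 members and in 10.5% of all genes. Of the 5 members with the first pattern, Wnt4, Fzd4, Fzd5, Fzd9 and Frzb, only Frzb was called at a stage.

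Fzd2, a receptor for both canonical and noncanonical Wnts, was read by 2 kept probes that disagreed. The brighter probe had ratios of -0.02 and 0.21 at E9.5 and of -0.00 and 0.22 at E11.5, and was called at neither stage. The dimmer probe had ratios of -1.38 and -1.34 at E9.5 and of -1.83 and -1.71 at E11.5. Its level was 7.96 and 8.08 in Nxn-null against 9.34 and 9.42 in wild-type RNA at E9.5, and 8.24 and 8.46 against 10.07 and 10.17 at E11.5. All 8 channels were well above background and the genotypes did not overlap. Its means of -1.36 ± 0.03 and -1.77 ± 0.08 (SD, n = 2 arrays) are 39.03% and 29.3% of wild type. In a limma fit over all 24994 kept probes the adjusted p was 2.96e-12 at the earlier and 2.57e-13 at the later stage, and 13.5% and 5.31% of probes were called lower at the stages (8.8% and 3.16% higher).

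The dimmer Fzd2 probe was 1 of 2 among the 24994 kept probes, or 0.008%, that were at least 2-fold lower on each of the 4 arrays. The other was a probe named for Ywhae, which encodes a 14-3-3 protein, with ratios of -1.84, -1.64, -1.83 and -1.002. Fzd2 and Ywhae are both on the chromosome that carries Nxn. Of 5711 genes with several kept probes, 6 (0.105%) had probes over 1 log2 unit apart at both stages, and Fzd2 was one of them. The arrays name the dimmer probe Fzd2 through a cDNA record that the RefSeq table used here does not list, so which transcript it reads was not checked. The brighter probe matched the RefSeq transcript of Fzd2. Of the 10 tested genes nearest to Fzd2, mean ratios ran from -0.19 to 0.14 at E9.5 and from -0.15 to 0.44 at E11.5, where Grn and Itga2b were called higher. Itga2b was called lower at E9.5. Of the 10 tested genes nearest to Nxn, Glod4 was called lower at both stages (-0.78 and -0.71) and Dbil5 higher at E11.5 (0.23). The others were called at neither stage. The causes were not tested.

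**Figure D2:**
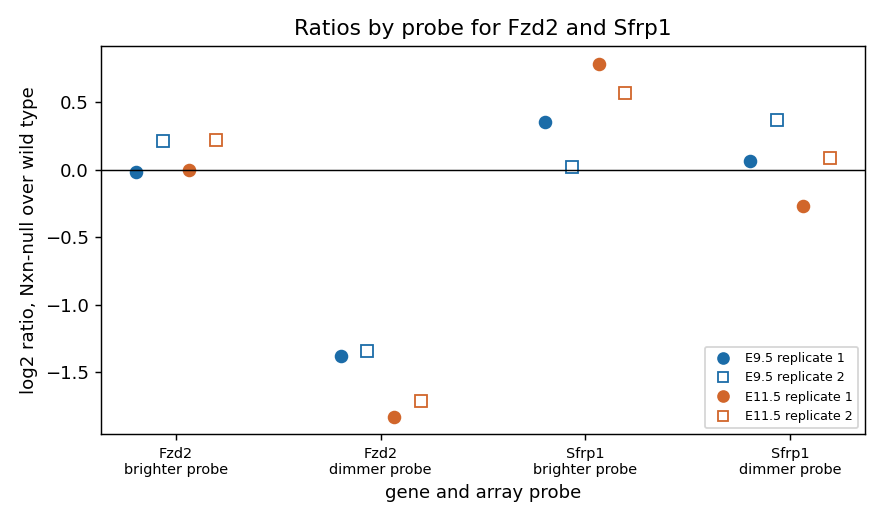
Log2 ratio of Nxn-null over wild type on each of the 4 arrays for both kept probes of Fzd2 and of Sfrp1 (circles replicate 1, open squares replicate 2, blue E9.5, orange E11.5). The dimmer Fzd2 probe lies between -1.34 and -1.83 on all arrays while the brighter one stays between -0.02 and 0.22, and the Sfrp1 probes part at E11.5.

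Wnt3, Wnt9a and Wnt9b also lie on the chromosome of Nxn. Wnt3 is described above, and Wnt9a and Wnt9b had mean ratios between -0.04 and 0.08 with no call at either stage.

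Lrp5, one of the 2 coreceptors that pair with Frizzled, was the one member lower on all 4 arrays and was called at both stages. Its level at E9.5 was 10.03 and 10.06 in Nxn-null and 10.44 and 10.48 in wild-type RNA. At E11.5 it was 10.07 on both arrays in Nxn-null RNA and 10.35 and 10.24 in wild-type RNA. The ratio was -0.42 ± 0.01 (SD, n = 2 arrays) at E9.5, or 74.9% of wild type (adjusted p = 4.03e-05). At E11.5 it was -0.22 ± 0.08, or 85.7% of wild type (adjusted p = 0.0273). The genotypes did not overlap at either stage, and the difference between the stages of 0.19 ± 0.09 (SE) was not called (adjusted p = 0.173). Lower values on all 4 arrays were seen in 10.5% of all genes, and calls at both stages in the same direction in 3.78%. With any 1 array and the dye term left out together, Lrp5 was not called at either stage. With the dye term alone left out it was not called either. Its partner Lrp6 was called by neither of its kept probes, which had opposite signs at both stages. The brighter one, named by the arrays for a cDNA clone and matched to Lrp6 through an older symbol, had mean ratios of 0.07 and -0.01. The dimmer one, which matched the RefSeq transcript of Lrp6, had -0.11 and 0.04.

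**Figure D3:**
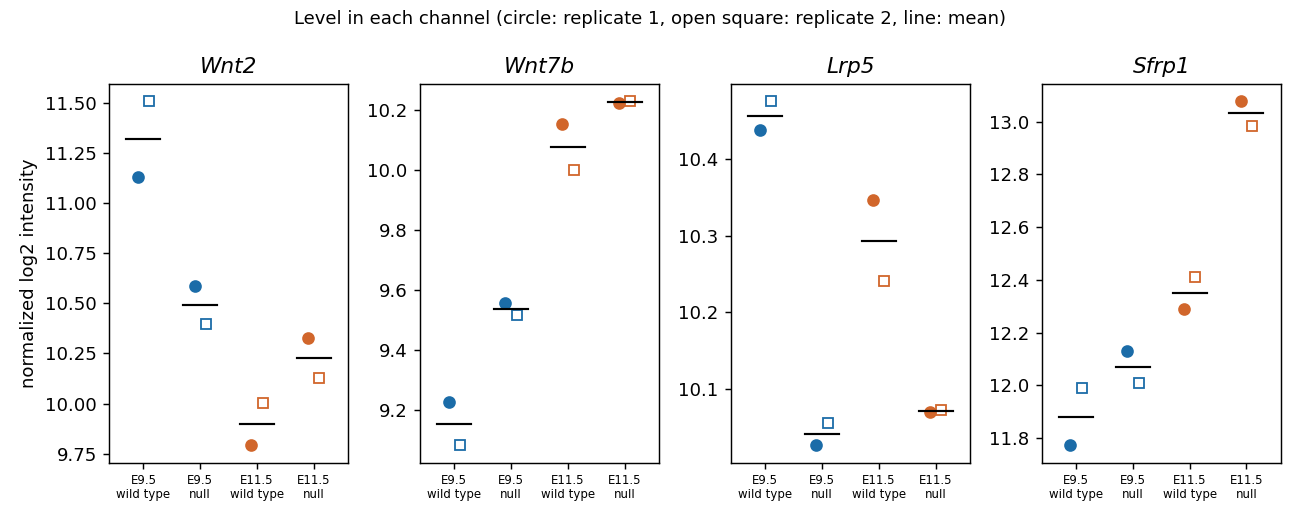
Normalized log2 intensity of Wnt2, Wnt7b, Lrp5 and Sfrp1 in each channel, by stage and genotype (circles replicate 1, open squares replicate 2, lines the mean of 2 arrays), with a separate axis for each gene. Nxn-null lies below wild type for Lrp5 at both stages and for Wnt2 at E9.5, and above it for Sfrp1 at E11.5, where Nxn-null levels are 13.08 and 12.98.

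Secreted frizzled-related proteins carry a Frizzled-like domain that binds Wnts outside the cell. Sfrp1 was read by 2 kept probes. Its brighter probe had levels of 13.08 and 12.98 in Nxn-null and 12.29 and 12.41 in wild-type RNA at E11.5. The ratio of that probe was 0.19 ± 0.24 at E9.5 (adjusted p = 0.0322) and 0.68 ± 0.15 at E11.5, or 1.60-fold higher (adjusted p = 1.74e-07). The 2 arrays gave 0.36 and 0.02 at E9.5, followed by 0.79 and 0.57 at E11.5. The difference of 0.49 ± 0.09 (SE) between the stages was called (adjusted p = 5.47e-04). It lost its call with any 1 array and the dye term left out together, and with the dye term alone left out. The values were 0.66 and 0.32 without replicates 1 and 2 of E9.5, and 0.38 and 0.60 without those of E11.5. The dimmer probe had ratios of 0.07 and 0.37 at E9.5 and of -0.27 and 0.09 at E11.5. Its mean was 0.22 at E9.5, which was called in the fit over probes (adjusted p = 0.0173), and -0.09 at E11.5, which was not (adjusted p = 0.499). The probes thus shared a direction at E9.5 and not at E11.5, and the difference between the stages was -0.31 by the dimmer probe, which was called in the opposite direction (adjusted p = 0.0289). Over the mean of both probes the E11.5 ratio was 0.29 (adjusted p = 0.0091) and the difference 0.09, which was not called (adjusted p = 0.536). Both probes matched a RefSeq transcript of Sfrp1.

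Sfrp2 had ratios of 0.14 and 0.28 at E9.5 and of -0.18 and -0.05 at E11.5. Its level was 13.06 and 13.15 in Nxn-null against 12.92 and 12.87 in wild-type RNA at E9.5. The mean of 0.21 ± 0.10 at E9.5 was called (adjusted p = 0.019), the mean of -0.12 ± 0.09 at E11.5 was not (adjusted p = 0.317), and the difference of -0.32 ± 0.09 (SE) was (adjusted p = 0.0166). With any 1 array and the dye term left out, or with the dye term alone left out, this difference was not called. Frzb, an antagonist of developing cartilage, had ratios of 0.17 and -0.09 at E9.5 and of 0.44 and -0.01 at E11.5. Its sign thus followed the dye at both stages, above 0 with Nxn-null RNA in Cy5 and below 0 with it in Cy3. The mean of 0.04 at E9.5 was not called, and the call at E11.5 (0.22 ± 0.32, adjusted p = 0.036) rests on replicate 1. Sfrp5 had means of 0.03 and 0.12 and was not called.

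Some Dkk proteins, Dkk2 among them, bind Lrp coreceptors. Dkk2 had mean ratios of 0.05 and -0.14 and Dkk3, a divergent member of the family, had -0.14 and 0.01. Neither was called. R-spondins boost the pathway by keeping Frizzled receptors at the cell surface. Rspo2, which acts in limb and lung, had ratios of -0.00 and 0.07 at E9.5 and of 0.22 on both arrays at E11.5, where its mean of 0.22 ± 0.01 was called (adjusted p = 0.0286). The difference between the stages for Rspo2 was 0.19 ± 0.09 (SE) and was not called (adjusted p = 0.191). Rspo1 and Rspo3 had means between -0.15 and 0.01 and were not called.

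The difference of the ratio between the stages was called for 3 of 33 members, Wnt2, Sfrp1 and Sfrp2, beside 13.5% of all genes. It was upward for 2 of them and downward for Sfrp2, beside 8.32% upward and 5.23% downward over all genes. No member was called in a limma test of the 2 stage averages against 0, where 0% of all genes were called. There, 1240 of all 17161 genes tested had an unadjusted p under 0.05, and so did 3 members: Lrp5 (-0.32), Wnt7b (0.27) and Sfrp1 (0.43). The lowest adjusted p was 0.598, for Lrp5. Of the tested members, 6 were above 0 on all 4 arrays and 1 below by the probe that stands for each, beside 7.59% and 10.5% of all genes. With no dye term in the fit, no member was called at either stage or in the difference.

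From E9.5 to E11.5, levels rose for Dkk2, Wnt7b, Wnt10a, Fzd1, Porcn and 7 more members and fell for Wnt16, Fzd7 and 4 more. This change was tested with limma on levels, with the 2 genotypes as replicates. The channels of an array share its spots, so these p-values are too small. By this test 18 of 33 members changed, 12 upward and 6 downward, beside 42.1% of all genes (21% upward and 21.1% downward). All 18 were also called when the array means stood as replicates, a test in which 21 members and 58.1% of all genes were called (28.2% upward and 29.9% downward). Without 1 array, between 11 and 16 members were called, with 11 both without replicate 1 of E9.5 and without replicate 2 of E11.5.

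Dkk2, which binds the coreceptors Lrp5 and Lrp6, rose by 0.98 in Nxn-null and 1.17 in wild-type RNA on the log2 scale, a mean of 1.08 ± 0.08 (SE) or 2.11-fold (adjusted p = 0.0063). It was the one member with a rise of at least 2-fold, beside 2.7% of all genes, and no member fell by that much, beside 0.903%. Wnt7b rose by 0.69 in Nxn-null and 0.92 in wild-type RNA. Wnt10a, a ligand of ectodermal appendages, rose by 0.86 and 0.72. The brighter Sfrp1 probe rose by 0.96 and 0.47, so its rise differed between the genotypes by the 0.49 given above. The dimmer probe of Sfrp1 moved by -0.04 on average and was not called (adjusted p = 0.76). Fzd1 rose by 0.64 and 0.66, Porcn by 0.57 and 0.59, and Wnt4, a ligand needed in kidney and gonad, by 0.57 and 0.51. Wnt9b (mean 0.41), Fzd8 (0.40), Dkk3 (0.33), Wnt3 (0.28) and Fzd2 (0.26) made up the rest of the 12. For Wnt3, the dimmer probe moved by -0.12 and was not called (adjusted p = 0.219).

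Of the 6 that fell, Wnt16 had the largest change, -0.81 in Nxn-null and -1.08 in wild-type RNA. As only 1 of its E11.5 channels was well above background, the size of that fall is uncertain. Fzd7, a receptor of early mesoderm and neural crest, changed by -0.65 and -0.59 by its brighter probe. Its dimmer probe stood at -0.00 and was not called (adjusted p = 0.989). Lrp6 (-0.31), Wnt1 (-0.26), Fzd10 (-0.25) and Wnt7a (-0.25) were the others. For Lrp6 and Fzd10 the dimmer probes moved by -0.13 and -0.17 and were not called. The mean change of Wnt2 was -0.84 ± 0.30 (SE), with -0.26 in Nxn-null and -1.42 in wild-type RNA, and it was not called over genotypes (adjusted p = 0.0952).

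**Figure D4:**
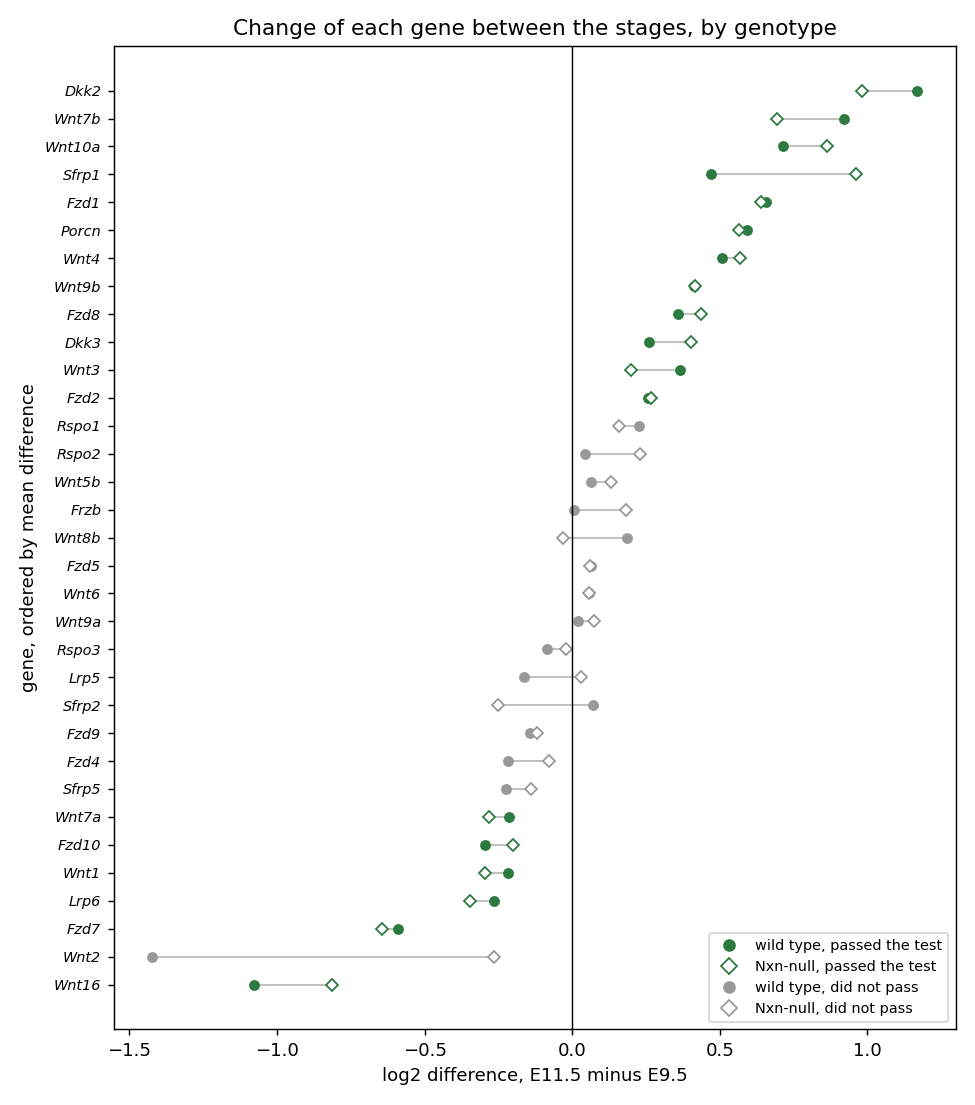
Log2 difference in level, E11.5 minus E9.5, for each of the 33 tested members in wild-type (filled circles) and Nxn-null RNA (open diamonds), ordered by the mean and joined by a line, with members past the test in green. The genotypes lie close together for most members, while Wnt2 spans -1.42 to -0.26 and Sfrp1 spans 0.47 to 0.96.

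The rest of the pathway was read from 3 further lists. Of 30 tested other ligands, receptors and modulators, 7 were called at E9.5 (5 higher) and 4 at E11.5 (2 higher), beside 24.7% and 9.31% of all genes. Among them Wnt3a, a ligand of the tailbud and dorsal neural tube, had ratios of 0.50 and 0.60, then 0.42 and 0.33. Fzd6, a receptor of planar polarity, had 0.05 and -0.16, then -1.19 and -0.91. Of 37 tested components inside the cell, 4 were called at E9.5 (3 higher) and 4 at E11.5 (2 higher), beside those shares of all genes. Tle1, a corepressor that binds TCF/LEF factors, had 0.11 and 0.29, then 1.002 and 1.14. Of 36 tested pathway targets, 12 were called at E9.5 (4 higher) and 3 at E11.5 (2 higher), beside the same 24.7% and 9.31%. The medians of the 3 lists lay between -0.05 and 0.05 at both stages, close to those of all genes. Axin2, the feedback inhibitor that is commonly read as pathway output, was called at neither stage (ratios of -0.05 and 0.09, adjusted p = 0.648 and 0.536).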

How the data were processed

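Expression was measured on 4 two-colour Agilent arrays, 2 with exchanged dyes at each of 2 stages. The deposited files give, per the file headers, intensity and local background of each spot in both channels, from Agilent Feature Extraction (9.1.3.1 per the file headers, 9.5.3.1 per the submitters' processing notes) and a log10 ratio of red over green. The authors' value table was equal to log10 of processed Nxn-null over wild-type signal in at least 99.995% of probes (tolerance 1e-04) and had array medians from -0.035 to 0.041. Of later steps, the series' design text gives the authors' rule of mean changes over 2-fold at both stages.

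Here intensities were corrected with normexp (offset 50) and loess in limma 3.58.1 (R 4.3.3), with control spots at weight 0, and levels were scaled with Aquantile. Repeat spots were averaged, and 293 probes marked as outliers stayed out. Of the probes used for the 33 tested members, 30 were named by accession and the others by symbol or older symbol. Fits were tested on simulated data. The members and lists were chosen with earlier results of these data known. Values by array are given for each member that passed a test, and by probe where the probes of a gene differ in sign or by over 0.5. The number of arrays limits the precision. Dye correction, filters, probe choice and single arrays were varied (closing section). Figures were drawn with matplotlib 3.10.9.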

Additional observations from a re-analysis of the deposited data

Results flagged for a closer look

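The ratio of 3 members differed between the stages by the test of the difference itself. For Wnt2 the E11.5 ratio exceeded the E9.5 ratio by 1.16 on the log2 scale. The signs were opposite at the stages, below 0 on both E9.5 arrays and above 0 on both E11.5 arrays. For Sfrp1 the difference was 0.49 by the brighter probe and -0.31 by the dimmer one, each called. For Sfrp2 it was -0.323, again with opposite signs at the stages. Groups of 2 arrays are too small for a test of outlying samples.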

How the results depend on the processing

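Of the 16 called ratios and differences, 13 kept their direction under every alternative run, and none was called under every alternative that used all 4 arrays. With the same probe, leaving out the dye term or an array of the other stage cannot change a stage's mean ratio. Kept directions in those runs were therefore fixed in advance. At E9.5 the 8 called members became 1 with median centring in place of loess, 3 with the Feature Extraction log ratio, 4 with no filter on dim probes and 0 with no dye term. At E11.5 the 5 called members became 2 with offset 10, 1 with median centring, 0 by the log ratio of Feature Extraction, 2 with no filter, 0 with no dye term and 2 with trend and robust moderation. The 3 differences between stages became 1 with median centring, 1 by the log ratio of Feature Extraction and 0 with no dye term. Over all genes the dye term also decided most calls, since 4232 at E9.5 and 1597 at E11.5 became 459 and 28 without it. Calls over all genes at E9.5 became 679 with median centring, 1531 by the Feature Extraction log ratio and 3510 with no filter. At E11.5 they became 1140 with offset 10, 220 with median centring and 168 by that log ratio. They were 1109 with no filter and 1379 with trend and robust moderation. The 2324 differences over all genes became 403 with median centring, 579 by that log ratio and 149 with no dye term. Leaving out 1 array gave 0 to 1 called members at E9.5, 0 to 1 at E11.5, 0 to 1 differences, 0 shared effects and 11 to 16 stage changes, with fewer degrees of freedom. Without replicate 2 of E9.5 no E9.5 member was called, and without the others only Wnt2 was. With the 4 arrays as separate measurements, 9 members had a shared effect in place of 0, beside 3757 of all 17161 genes tested. Members 2-fold apart rose from 0 to 1 without replicate 1 of E9.5 (Wnt2) and to 1 with every kept probe on its own (Fzd2, chosen after seeing the data). The median ratio moved from 0.04 to 0.10 with median centring and 0.082 with the Feature Extraction log ratio at E9.5, and from 0.07 to 0.14 with median centring at E11.5. It ran from 0.029 to 0.090 and from 0.013 to 0.094 with 1 array left out. Directions turned for Sfrp1 with its other probe (-0.090 at E11.5 and -0.31 between stages, also chosen after seeing the data) and for Frzb at E11.5 without replicate 1 of that stage (-0.0075, and 0.441 without replicate 2). The causes were not tested. Ratios under about 0.2 rest on a spread that 4 arrays measure poorly, and dim members such as Wnt8b, Fzd5 and Wnt16 at E11.5 lie near background.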
